A study of Mus musculus with 87 samples.

Results

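The bone morphogenetic protein (BMP) and transforming growth factor beta (TGF-beta) signalling genes described here were 38 genes out of 43346 genes counted in every library. They were chosen by name as ligands (21 genes), receptors (11 genes, 1 of them a co-receptor) and antagonists (6 genes). All 38 had a row in the table of each of the 64 RNA-seq libraries, at 0 counts in some.

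The study deleted single boundaries between topologically associating domains (TADs), the chromatin neighbourhoods within which enhancers mostly contact their genes, from the germ line of FVB mice with CRISPR/Cas9. RNA was sequenced from whole tissues dissected from embryos at embryonic day 11.5, and each line, named B2 to B8, lacked a different boundary. Line B2 gave lungs (6 homozygous, 6 wild-type) and hearts (4 homozygous, 4 wild-type). Lines B3 and B5 each gave faces and hearts, line B4 gave gut and midbrain, line B8 gave forebrain and neural tube, and lines B6 and B7 gave faces, with 2 homozygous and 2 wild-type libraries for each tissue of each line. Lines B6 and B7 also gave 2 homozygous hearts each, with no wild-type hearts of their own. All embryos were of the same strain and stage, and the deletion is carried by every cell of a homozygous embryo. The labels do not say that the libraries of a group came from separate litters, so p-values measure only the spread between these libraries. None of the 38 genes lies next to a deleted boundary. The nearest was Nodal, 10.0 Mb from the B4 deletion, followed by Tgfbr3, 12.4 Mb from the B5 deletion. Outside the 38, the antagonist gene Sostdc1 lies in a TAD flanking the B6 boundary. The paper reports lower Sostdc1 expression in hearts homozygous for that deletion.

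BMP and TGF-beta ligands are secreted dimers that bring together type I and type II serine/threonine kinase receptors, which then phosphorylate Smad proteins that enter the nucleus and change transcription. BMP ligands act through Smad1, Smad5 and Smad9, whereas TGF-beta, activin and nodal ligands act mostly through Smad2 and Smad3. Secreted antagonists such as noggin, chordin and gremlin bind BMP ligands before they reach a receptor, and the balance between ligand and antagonist patterns the embryonic heart, face, limb, gut and neural tube.

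Library depth ranged from 8391553 to 31793440 counts. Levels are given as counts per kilobase of effective gene length per 1000000 scaled counts, with all 64 libraries scaled together by the trimmed mean of M-values (TMM), so they can be compared between genes. Of the wild-type lungs, E5420-07 had 0.362% of its counts in mitochondrial genes, against 11.3% or more in the 10 lungs other than it and E5420-09, and E5420-09 had 90.11% of its counts in 10 genes and only 1344 counts in the 38 genes together. Some single markers set apart the gut. Hnf4a was at 12 to 28.6 there (2.95 or less in all other libraries) and Cdx2 at 0.891 to 3.73 (0.068 or less). The part of hepatocytes in the Hnf4a level was not tested. Foxa1, Foxa2 and Sox2 of the gut list reached higher levels in midbrain than in gut. Of the lung list, only Etv5 set the lungs apart, at 46.5 to 94.5 (29.7 or less). Nkx2-1 was at 4.61 to 16.2 in lungs but reached 21.9 in faces. Sox9 was at 7.31 to 16.6 in lungs and 24.7 to 42.1 in faces. Id2 was at 31.5 to 57.5 in lungs and 51.5 to 94.1 in hearts. The surfactant gene Sftpc was at 0.83 to 17.1 in lungs but reached 6.91 in hearts, and the summed gut and lung epithelium lists, which hold genes that other tissues also express, did not separate their tissue from all others. Some libraries carried markers of other tissues. The summed level of 7 hepatocyte markers was 3150 to 4730 in the 4 gut libraries. The summed level of 8 cardiomyocyte markers was 230.0 to 262.0 in the 4 neural tube libraries, against 6940 to 34000 in hearts. In the hearts, face mesenchyme markers reached 331.0 (median 63.8) and neuron markers 247.0 (median 15.1). The sum of 6 erythroid markers was 21200 to 285000 in hearts, 21000 to 80700 in lungs and 9520 to 20100 in faces. Their part in the results was not tested. In whole tissues, fewer cells of a type and less RNA per cell cannot be told apart.

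The receptors were present throughout the embryo, while the ligands and antagonists differed more from tissue to tissue. All 11 receptors had a wild-type mean level above 1 in each of the 7 tissues, as did 8 of 21 ligands and 3 of 6 antagonists. The mean level in the highest tissue was 1.92 to 7.8 times that in the lowest for receptors (median 3.15). For the 19 ligands with counts in the lowest tissue it was 2.56 to 39.7 times (median 10.8), and for antagonists 2.7 to 14.4 times (median 8.36). Of the 38 genes, 30 had a count in all 63 libraries other than E5420-09. For 14 genes every wild-type library of the highest tissue lay above every wild-type library of the next tissue. Of these, 4 were highest in heart. The others were highest in forebrain (2), midbrain (4), neural tube (1) or gut (3), each with only 2 wild-type libraries. The share of all genes with such a gap was not computed. For the other 24 the highest tissue overlapped the next, and these included all 11 genes highest in lung. The low library among the lungs was E5420-07 for Bmpr1a (5.31, others 40.9 to 51.4) and Bmp5 (1.53, others 8.27 to 9.73). It was the highest lung for others, such as Acvr2b (38.6, others 12.9 to 17.9). The tissue with the highest mean depended on the scale. On the deposited TPM scale (transcript abundance per length, as a share of each library), which is not adjusted for a few very abundant genes, 23 of the 38 genes kept the same highest tissue, among them 12 of the 14, whereas all 11 genes with their highest mean level in lung were highest in another tissue (Bmp5, Bmp3, Inhba, Tgfb2, Bmpr1a, Acvrl1, Bmpr2, Acvr2b, Tgfbr2, Tgfbr3 and Chrd).

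**Figure D1:**
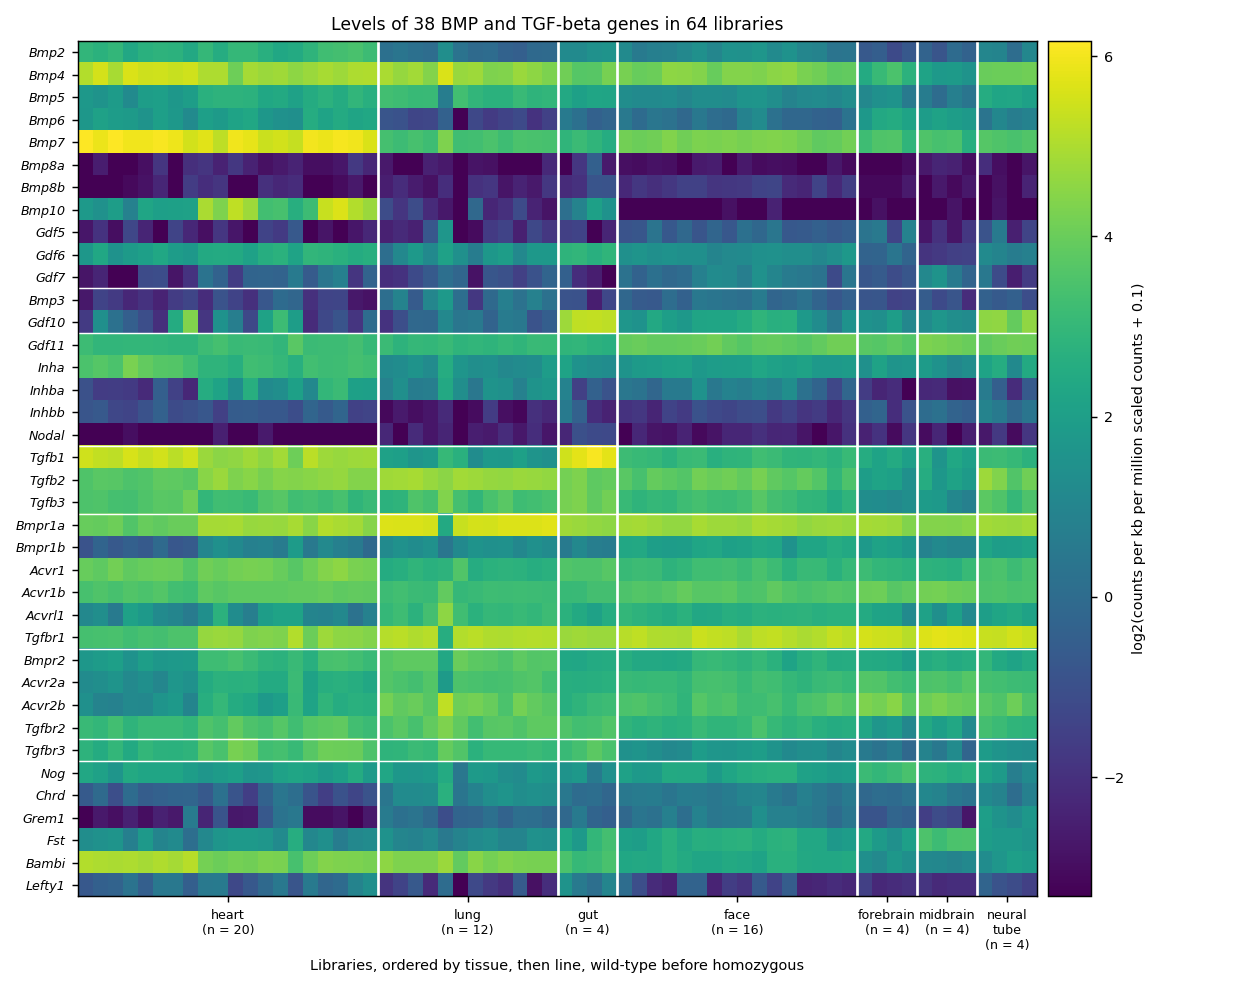
Heat map of the 38 genes (rows, grouped by role) in the 64 libraries (columns, ordered by tissue, then line, with wild-type before homozygous). Colour gives log2(level + 0.1), and the receptor rows keep a similar colour across tissues while ligand rows such as Bmp10, Gdf10 and Gdf6 change between tissues.

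Among the BMP ligands, Bmp7 and Bmp4 had the highest levels in the heart. Bmp7, a ligand of many epithelia and of the myocardium, ranged from 37.7 to 71.9 over the 8 wild-type hearts (median 56.7). In the 8 wild-type faces Bmp7 lay between 14.4 and 20.3, in the 6 lungs between 8.93 and 19.9, and in the 2 gut libraries at 7.39 and 8.79. Thus no wild-type heart overlapped any other tissue for Bmp7. Bmp4, which patterns mesoderm and is needed for outflow tract and limb development, was at 27 to 49.9 in hearts (median 31.9) and at 21.3 to 49.6 in lungs (median 27.5), so that these tissues overlapped. It was lowest in the midbrain, at 3.34 and 4.41, below the forebrain at 5.51 and 8.25. Bmp2, which acts in the formation of the cardiac cushions, was at 4.99 to 7.93 in hearts and no higher than 3.08 in any wild-type library of another tissue.

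Bmp10, a cardiac ligand required for growth of the trabecular myocardium, was close to confined to the heart. It ranged from 1.71 to 31.3 over the 8 wild-type hearts (median 6.75), and it had no count in any of the 8 wild-type faces or either wild-type midbrain. The wild-type forebrain and neural tube had 1 count each over both libraries, the lungs were at 0 to 0.367, and the gut stood next at 1.01 and 1.78, overlapping only the lowest heart. The 250 bases upstream of the annotated Bmp10 start (RefSeq, GRCm38.p6) are printed after the 250 bases upstream of Bmpr1a, the type I BMP receptor that was found at a high level in all tissues, because these genes stand at opposite ends of the range of tissue restriction. Capitals in the Bmp10 sequence mark GATAA, the core of sites bound by GATA factors, and capitals in the Bmpr1a sequence mark GGGCGG or its reverse complement CCGCCC, the GC box.

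Bmpr1a: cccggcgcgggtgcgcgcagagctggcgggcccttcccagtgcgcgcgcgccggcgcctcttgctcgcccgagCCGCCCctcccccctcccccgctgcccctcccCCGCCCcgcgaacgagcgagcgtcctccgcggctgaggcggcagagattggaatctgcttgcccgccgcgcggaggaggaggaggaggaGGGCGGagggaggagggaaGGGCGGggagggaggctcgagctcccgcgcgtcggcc
Bmp10: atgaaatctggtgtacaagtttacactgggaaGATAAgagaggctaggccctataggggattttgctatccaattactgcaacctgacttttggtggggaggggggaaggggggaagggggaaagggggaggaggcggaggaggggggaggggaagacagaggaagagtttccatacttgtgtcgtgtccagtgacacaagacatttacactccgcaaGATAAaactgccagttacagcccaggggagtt

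The Bmpr1a sequence is chr14:34502547-34502796 on the minus strand, has 78.8% G or C and 36 CpG dinucleotides, and holds 4 GC boxes. The Bmp10 sequence is chr6:87428744-87428993 on the plus strand, has 52.0% G or C and 3 CpG dinucleotides (median of all promoters 6.0), and holds GATAA beginning 218 and 32 bases before the start. Promoters of this length were matched for 26 of the 38 genes. Searched on both strands, GATAA occurred in 3 of these 26 (Bmp10, Bmp5 and Bmp8a) and in 22.6% of 32851 promoters, and GGGCGG, which can share at most its first or last letter with GATAA or its reverse complement, occurred in 18 of the 26 and in 32.7% of all promoters. These matches describe the letters present and do not show binding.

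The growth and differentiation factors had patterns of their own. Gdf10, also named Bmp3b, was at 27.6 and 38.5 in the wild-type gut and at 23.3 and 24 in the neural tube, whereas the 8 faces lay between 2.38 and 7.36. Gdf6, a ligand of joints, retina and dorsal neural tube, was at 7.13 and 7.55 in the gut and at 0.172 and 0.198 in the midbrain, the widest ratio between tissue means of any ligand with counts in both (39.7). Gdf11, which patterns the body axis and restrains neurogenesis, varied least among ligands. It was highest in the midbrain at 18.8 and 19.4 and lowest in the gut at 7.37 and 7.53. Gdf7, a ligand of the roof plate, was at 2.08 and 2.83 in the midbrain and at 0.695 to 2.72 in faces, and these tissues overlapped. Bmp6 was at 3.27 and 5.24 in the forebrain, 3.66 and 4.31 in the midbrain and 2.66 to 4.21 in hearts, all above the lungs at 0 to 0.662. Bmp5 was highest on average in lungs (1.53 to 9.73), with E5420-07 as the low value, but in the neural tube by TPM, and Bmp3 never exceeded 3.31 in a wild-type library. Gdf5, Nodal, Bmp8a and Bmp8b were close to the detection limit in most tissues. Bmp8a and Bmp8b are near-identical neighbours on chromosome 4, so how reads were split between them is uncertain.

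The TGF-beta ligands differed from one another in their order of tissues. Tgfb1, the isoform of blood vessels and blood cells, was highest in the gut at 44.2 and 54.7, overlapped there by the hearts at 22.6 to 48.0, and did not exceed 9.48 in any wild-type library of the face, lung or neural tissues. Tgfb2, the isoform of cardiac and craniofacial mesenchyme, was at 23.1 to 30.1 in lungs, 20.7 and 27.3 in the neural tube and 18.3 and 20.3 in the gut, against 3.75 and 4.49 in the forebrain. Tgfb3, which acts in palate fusion, was at 18.8 and 20.1 in the gut and at 2.34 and 2.42 in the forebrain. Among the activin genes Inha, which encodes the inhibin alpha chain, was at 7.03 to 18.9 in hearts and no higher than 5.79 elsewhere. Inhba and Inhbb, which encode activin beta chains, had levels no higher than 5.79 and 1.78 in any wild-type library.

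Tgfbr1, the type I receptor for TGF-beta, was the member with the highest mean level in 4 tissues. It was at 51.4 and 55.2 in the midbrain, 43.6 and 47.5 in the forebrain, 40.2 and 41.7 in the neural tube and 30.8 to 42.2 in faces, and it was lowest in hearts at 9.54 to 27. Bmpr1a was the member with the highest mean in lungs (40.6 ± 17.7, SD, n = 6) and the next highest after Tgfbr1 in faces and in the 3 neural tissues. Its 6 lungs lay between 40.9 and 51.4 apart from E5420-07 at 5.31. Acvr2b, a type II receptor for activins, nodal and Gdf11, was at 16.9 to 20.2 over the 4 forebrain and midbrain libraries, at 12.9 to 38.6 in lungs, where E5420-07 was the highest, and at 1.69 to 7.88 in hearts. Acvr1b, the activin type I receptor, and Acvr2a had their highest means in the forebrain or midbrain. Acvr1, a BMP type I receptor, had its highest mean in hearts, at 14.1 to 18.2 against 11.5 and 12.1 in the gut, but in the gut by TPM. Bmpr2 and Tgfbr2, the main type II receptors for BMPs and TGF-beta, had their highest means in lungs, where they overlapped other tissues, but in the neural tube and the gut by TPM. The co-receptor Tgfbr3, or betaglycan, was at 5.4 or more in hearts, lungs and gut and at 3.75 or less in the other 4 tissues.

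The 6 antagonists had their highest mean levels in 6 tissues, or in 5 by TPM, where Chrd was highest in the midbrain like Fst. Nog, encoding noggin, was at 7.72 and 8.71 in the forebrain and at 6.67 and 6.98 in the midbrain. Fst, encoding the activin-binding protein follistatin, was at 8.91 and 11.3 in the midbrain and at 6.76 or less in every wild-type library of another tissue. Grem1, encoding gremlin, was at 2.87 and 3.91 in the neural tube, above the faces at 0.826 to 2.56. Bambi, which encodes a receptor-like protein with no kinase domain, was at 16.4 to 33.8 in hearts and 14.7 to 26.5 in lungs, against 11 or less in all other tissues. Chrd, encoding chordin, was at 0.391 to 6.36 over all wild-type libraries, and its highest value was in lung E5420-07. Lefty1, an antagonist of nodal, was at 1.42 and 2.83 in the gut and overlapped there with the hearts at 0.506 to 1.42. Lefty1 has a close paralog, Lefty2, and its counts may hold reads of that gene.

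**Figure D2:**
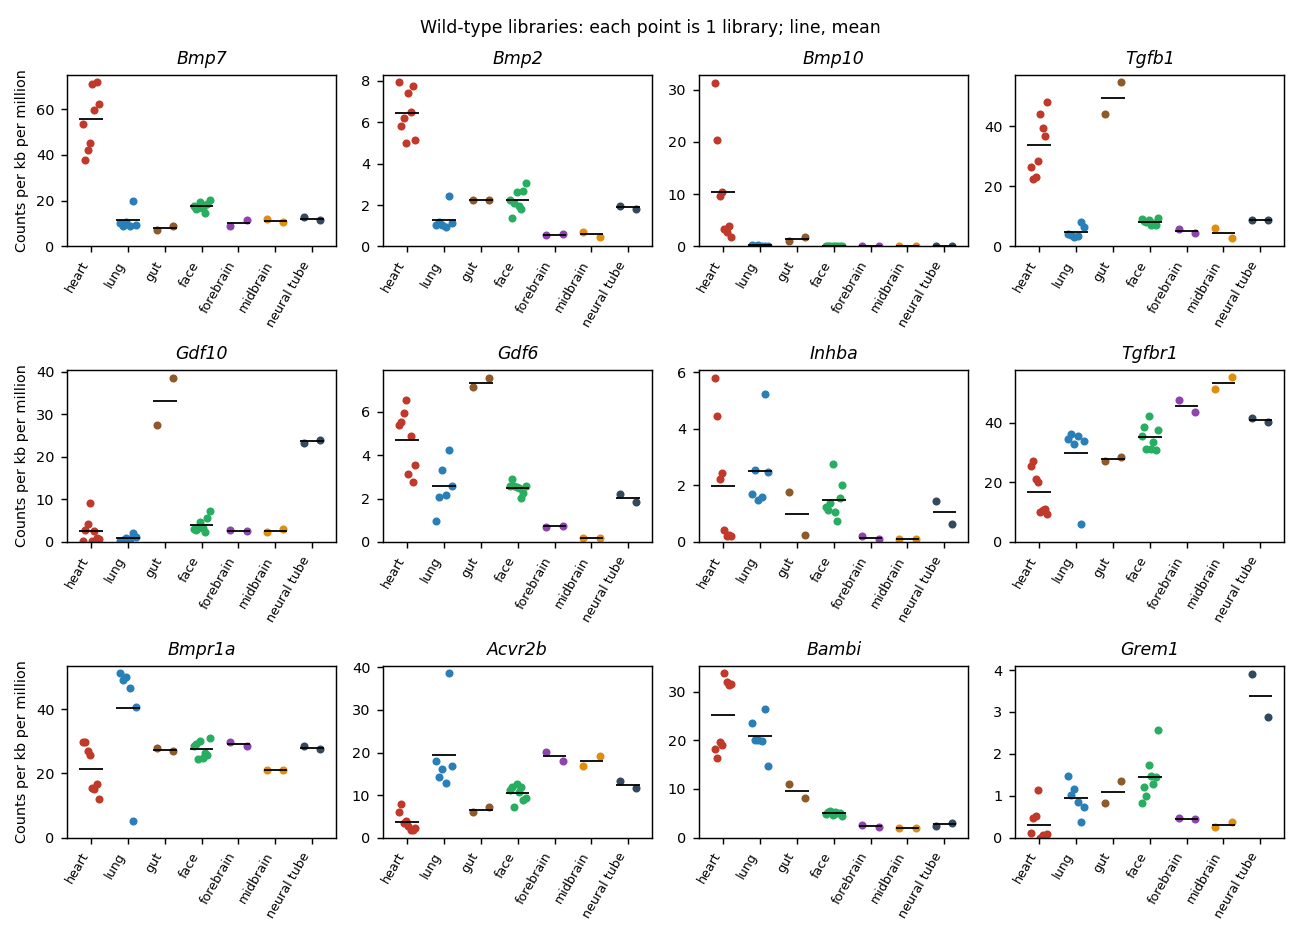
Levels in wild-type libraries by tissue for selected genes (1 panel per gene, counts per kilobase per 1000000 scaled counts, linear axis starting at 0); each point is 1 library and the line is the mean. The hearts lie above all other tissues for Bmp7, and lung E5420-07 lies far below the other 5 lungs for Bmpr1a.

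Lung was compared with heart in the wild-type embryos of line B2, to ask which components distinguish tissues that form side by side in the thorax. The lungs and hearts carry different kinds of sample code (such as E5406-02 and A55). Any difference in sequencing run could therefore not be told apart from tissue. Of 32 members tested, 14 were higher in lung (background over all genes 33.8%), 9 were lower (30.3%) and 9 did not pass. The roles divided unevenly: 8 of 11 receptors were higher and 1 lower, whereas 4 of 16 ligands were higher and 7 lower, and 2 of 5 antagonists were higher and 1 lower. The median log2 fold change of the 32 members was 0.06, against 0.08 over all genes tested. All 4 type II receptors were among the genes higher in lung. The split depended on the scaling: with total counts as library size, an alternative chosen after seeing the data, 9 members were higher and 8 lower, the median over all genes was -0.17, and Tgfbr2 no longer passed (log2 fold change 0.50, adjusted p = 0.535). The lungs other than E5420-07 and E5420-09 had 11.3% to 14% of their counts in mitochondrial genes and 22.8% to 28.7% in their 10 most abundant genes, against 2.46% to 3.14% and 8.43% to 10.5% in the 4 hearts, and the part of this difference in the result was not tested.

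The members tested and named in the tissue comparisons were those that passed with the largest changes. Tissues that do not overlap in them follow in part from that choice and are no added evidence. The share of all genes with separate tissues was not computed. Grem1 showed the largest rise in lung. It was at 0.372 to 1.46 in the 6 lungs (median 0.935) and at 0, 0.0304, 0.0579 and 0.0808 in the 4 hearts, a log2 fold change of 4.48 ± 0.63 (SE) with an adjusted p of 7.41e-05. The lungs and hearts did not overlap. In the homozygous embryos the same comparison gave 1.14 with an adjusted p of 0.184, and there the homozygous heart A58 had a Grem1 level of 1.45 beside summed face mesenchyme markers of 199.0 and hepatocyte markers of 885.0, whose part in the result was not tested. Acvr2b was at 12.9 to 38.6 in lungs (median 16.5) and at 1.69, 1.82, 2.13 and 2.61 in hearts, a log2 fold change of 3.32 ± 0.35 (adjusted p = 8.54e-06). Inhba was at 1.47 to 5.22 in lungs (median 2.09) and at 0.208, 0.221, 0.231 and 0.409 in hearts (3.33 ± 0.48 on the log2 scale, adjusted p = 9.56e-05). Lung and heart were again fully separate for both genes. Bmp3 rose by 3.40 ± 0.59 (adjusted p = 0.000387), from 0.0547 to 0.276 in hearts to 0.569 to 3.31 in lungs. Acvrl1, a type I receptor of endothelial cells, rose by 2.27 ± 0.39 (adjusted p = 0.000364), and Acvr2a by 2.06 ± 0.31 (adjusted p = 0.000118).

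The genes lower in lung were led by ligands of the heart. Bmp10 was at 1.71, 2.7, 3.29 and 3.82 in hearts and at 0 to 0.367 in lungs, a log2 fold change of -3.56 ± 0.46 (adjusted p = 3.78e-05). Tgfb1 was at 36.9, 39.5, 44.3 and 48.0 in hearts and at 2.99 to 8.06 in lungs (-3.23 ± 0.27, adjusted p = 1.22e-06). Bmp7 was at 59.8, 62.3, 71.2 and 71.9 in hearts and at 8.93 to 19.9 in lungs (-2.50 ± 0.23, adjusted p = 2.93e-06). In all 3 genes every heart exceeded every lung. Bmp6, Inhbb and Bmp2 fell by 3.06 ± 0.31, 2.86 ± 0.48 and 2.30 ± 0.28 on the log2 scale, with adjusted p-values of 5.55e-06, 0.000297 and 2.63e-05. The lungs E5420-07 and E5420-09 entered this comparison. Without both, 27 members passed the test, and the share of all genes in that fit is not given. The log2 fold changes of Grem1, Acvr2b, Tgfb1 and Bmp7 were then 4.73, 2.98, -3.56 and -2.73.

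The other pathway genes were counted in the same comparison. Of 8 Smad genes, 5 were higher in lung and 1 was lower. Of 10 BMP response genes, none was higher and 8 were lower, and of 8 TGF-beta response genes, 2 were higher and 5 lower. Of 6 other receptors and co-receptors tested, 2 were higher and 4 lower, and all 3 other ligands tested were lower. Tbx20, a cardiac T-box factor on the BMP response list, fell by 4.06 on the log2 scale (adjusted p = 3.25e-07), beside the cardiomyocyte markers at 36.4 to 65.4 in lungs and 29300 to 34000 in hearts, whose part was not tested. Of 18 other antagonists and ligand-binding proteins tested, 9 were higher and 4 lower. Cer1, encoding the antagonist cerberus, had no count in the 4 hearts and was at least 14.6-fold higher in lungs against a floor of 3 counts per library. Hfe2, a BMP co-receptor known as hemojuvelin, fell by 6.30 (adjusted p = 5.95e-06).

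Face was compared with heart in wild-type embryos of lines B3 and B5, with the line as a term of the model. Of 36 members tested, 10 were higher in the face (background 30.2%), 18 were lower (background 30.1%) and 8 did not pass. Ligands made up most of the genes lower in face, with 12 of 19 lower and 2 higher, whereas receptors divided evenly (5 higher and 4 lower of 11) and 3 of 6 antagonists were higher and 2 lower. The median log2 fold change was -0.33, against 0.03 over all genes. With total counts as library size the median over all genes was 0.29, and 13 members were higher in the face and 14 lower.

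Bmp10 had no count in the 4 faces and was at 20.3 and 31.3 in B3 hearts and 9.67 and 10.5 in B5 hearts, at least 155.0-fold lower in the face against a floor of 3 counts per library. Bambi was at 4.88 and 5.27 in B3 faces and 4.64 and 5.42 in B5 faces, and at 16.4, 18.2, 19 and 19.7 in the hearts (log2 fold change -1.86 ± 0.09, adjusted p = 3e-07). Tgfbr3 was at 2.26 to 3.74 in the faces and 9.49 to 13.1 in the hearts (-1.91 ± 0.16, adjusted p = 6.97e-06). No face overlapped a heart for these genes. Tgfb1, Bmp6 and Bmp2 fell by 1.58 ± 0.10, 1.62 ± 0.21 and 1.60 ± 0.21 on the log2 scale (adjusted p-values 1.51e-06, 0.000124 and 0.00016).

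The members higher in the face were fewer and changed less. Gdf5, a ligand of developing joints, was at 0.434, 0.488, 0.471 and 0.827 in faces and at 0.0324, 0.181, 0.208 and 0.279 in hearts (1.70 ± 0.46, adjusted p = 0.00945). Bmpr1b, a type I receptor of skeletal progenitors, was at 3.79 to 5.27 in faces and 1.45 to 2.61 in hearts (1.23 ± 0.13, adjusted p = 4.16e-05). Neither gene overlapped between the tissues. Grem1 was at 0.826, 0.986, 1.2 and 1.74 in faces and at 0.096, 0.459, 0.519 and 1.13 in hearts, where the values overlapped (1.23 ± 0.45, adjusted p = 0.0386). The wild-type hearts A16 and A24, with Grem1 at 0.459 and 1.13, also had lung and gut mesenchyme markers summing to 61.0 and 60.5, against 1.14 to 48.7 in the other 18 hearts. Without these hearts, which leaves only the hearts A14 of B3 and A23 of B5, Grem1 rose by 2.07 (adjusted p = 0.0064). In that fit 27 members passed, 11 higher and 16 lower, and the share of all genes that passed is not given. The part of the mesenchyme markers in the result was not tested. Acvr2b, Fst and Gdf11 rose in the face by 1.04 ± 0.20, 0.84 ± 0.18 and 0.81 ± 0.09 (adjusted p-values 0.00157, 0.00269 and 5.57e-05). Within B5 alone Gdf5 and Grem1 no longer passed (adjusted p = 0.0689 and 0.211), and within B3 alone Fst did not (adjusted p = 0.0813).

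The face-heart difference itself was compared between lines B3 and B5. None of 36 members passed at an adjusted p of 0.05 in edgeR (background 0%), and 3 had an unadjusted p under 0.05 (background 4.99%). Of the other pathway genes, all 7 TGF-beta response genes that differed between face and heart were lower in the face (8 tested), and 5 BMP response genes were higher and 2 lower of 10. Msx1, a homeobox gene of craniofacial mesenchyme, rose by 4.16 in the face (adjusted p = 4.37e-08), and Tbx20 fell by 7.50 (adjusted p = 8.14e-07). Sostdc1, an antagonist of tooth and hair placodes, rose by 3.20 (adjusted p = 4.17e-06), and Gdf2, the endothelial ligand BMP9, fell by 6.38 (adjusted p = 8.11e-05).

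Gut was compared with midbrain in wild-type embryos of line B4. Of 34 members tested, 17 were higher in gut (background 26.6%), 10 were lower (background 24.1%) and 7 did not pass. All 3 TGF-beta ligands were higher in gut, and of 17 ligands in all 9 were higher and 4 lower. Of 11 receptors, 5 were higher and 4 lower, and of 6 antagonists, 3 were higher and 2 lower. The median log2 fold change was 0.46, against 0.02 over all genes. The gut libraries carried hepatocyte markers at 3150 to 4730 and the midbrain libraries at 0.308 to 14.2, and the part of these cells in the result was not tested.

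Gdf6 was at 7.13 and 7.55 in gut and at 0.172 and 0.198 in midbrain, a log2 fold change of 5.29 ± 0.22 (adjusted p = 1.13e-05). Gdf10 was at 27.6 and 38.5 in gut and at 2.29 and 3.04 in midbrain (3.62 ± 0.22, adjusted p = 4.35e-05). Tgfb1 was at 44.2 and 54.7 in gut and at 2.93 and 6.21 in midbrain (3.44 ± 0.33, adjusted p = 0.000262). In these and all other genes named for this comparison, both gut libraries lay on the same side of both midbrain libraries. This follows in part from naming genes with large changes and is no added evidence. Bmp10 was at 1.01 and 1.78 in gut with no count in midbrain, at least 11.4-fold higher against a floor of 3 counts per library. Lefty1 was at 1.42 and 2.83 in gut and 0.118 and 0.177 in midbrain (4.58 ± 0.69, adjusted p = 0.00189). Tgfbr3 was at 8.65 and 10.2 in gut and 1.3 and 1.81 in midbrain (2.61 ± 0.19, adjusted p = 9.72e-05).

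The members higher in midbrain included receptors and antagonists. Gdf7 was at 2.08 and 2.83 in midbrain and 0.134 and 0.647 in gut (log2 fold change -2.69 ± 0.66, adjusted p = 0.0145). Acvr2b was at 16.9 and 19.1 in midbrain and 6.1 and 7.08 in gut (-1.45 ± 0.16, adjusted p = 0.000529). Fst was at 8.91 and 11.3 in midbrain and 3.45 and 4.93 in gut (-1.27 ± 0.23, adjusted p = 0.0043), but the homozygous samples gave an adjusted p of 0.169. Bmp6, Gdf11 and Nog fell in gut by 1.71 ± 0.27, 1.35 ± 0.11 and 1.17 ± 0.21 on the log2 scale (adjusted p-values 0.00231, 0.000124 and 0.00417).

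Of 7 other ligands tested in gut against midbrain, 6 were higher in gut and 1 was lower. Gdf2, Lefty2 and Gdf15 had no count in midbrain and were at least 167.0-fold, 11.4-fold and 7.97-fold higher in gut. Gdf2 is known as a product of the liver, and the part of the hepatocyte marker levels in its value was not tested. Among BMP response genes 3 were higher in gut and 5 lower of 10, with Id4, Msx1 and Msx2 lower by 3.43, 2.50 and 2.35 on the log2 scale. Of 8 TGF-beta response genes, 4 were higher and 1 lower, and the extracellular matrix gene Postn rose by 3.07.

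Forebrain was compared with neural tube in libraries of line B8 labelled wild-type. The deletions spared protein-coding genes, so the genotype labels of no line could be checked here against a deleted gene. The B8 forebrains are named by their labels, and the direction of their genotype differences is uncertain. Of 34 members tested, 5 were higher in forebrain (background 15%), 16 were lower (background 18.3%) and 13 did not pass. All 3 TGF-beta ligands were lower in forebrain, and of 17 ligands in all 1 was higher and 10 lower. Receptors were 3 higher and 3 lower of 11, and antagonists 1 higher and 3 lower of 6. The median log2 fold change was -0.57, against -0.01 over all genes. The neural tube libraries carried cardiomyocyte markers at 230.0 to 262.0 and skeletal muscle markers at 99.9 to 147.0, against 1.52 to 11.7 and 0.678 to 1.68 in the forebrain, and the part of these cells in the result was not tested.

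Gdf10 was at 2.52 and 2.78 in forebrain and at 23.3 and 24 in neural tube (log2 fold change -3.19 ± 0.11, adjusted p = 9.53e-06). Tgfb2 was at 3.75 and 4.49 in forebrain and at 20.7 and 27.3 in neural tube (-2.61 ± 0.14, adjusted p = 4.18e-05). Tgfb3 was at 2.34 and 2.42 in forebrain and at 11.7 and 13.7 in neural tube (-2.44 ± 0.13, adjusted p = 5.01e-05). Both libraries of each tissue agreed in direction for every gene named here, which again follows in part from how the genes were picked. Grem1 was at 0.446 and 0.459 in forebrain and at 2.87 and 3.91 in neural tube (-2.92 ± 0.23, adjusted p = 0.000213). Inhba and Lefty1 fell in forebrain by 2.64 ± 0.62 and 2.31 ± 0.58 (adjusted p-values 0.0175 and 0.0224). Without the neural tube A34 the adjusted p of Inhba was 0.117, and with DESeq2 that of Lefty1 was 0.138.

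Bmp6 was at 3.27 and 5.24 in forebrain and at 1.16 and 2.02 in neural tube (1.39 ± 0.33, adjusted p = 0.0191; 0.0641 without the neural tube A34). Nog was at 7.72 and 8.71 in forebrain and at 3.5 and 4.29 in neural tube (1.05 ± 0.18, adjusted p = 0.00532). The activin receptors Acvr2b, Acvr1b and Acvr2a were higher in forebrain by 0.59 ± 0.12, 0.50 ± 0.08 and 0.30 ± 0.08 on the log2 scale (adjusted p-values 0.0118, 0.00313 and 0.024), with adjusted p-values of 0.483, 0.267 and 0.851 in the samples labelled homozygous. In those samples only 7 members passed, 2 higher (Bmp6 and Nog) and 5 lower, and the share of all genes that passed is not given. Of 19 other antagonists and ligand-binding proteins, 1 was higher in forebrain and 13 were lower. Id4 and Msx1 were higher in forebrain by 3.55 and 1.95, and Id1 was lower by 1.23.

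**Figure D3:**
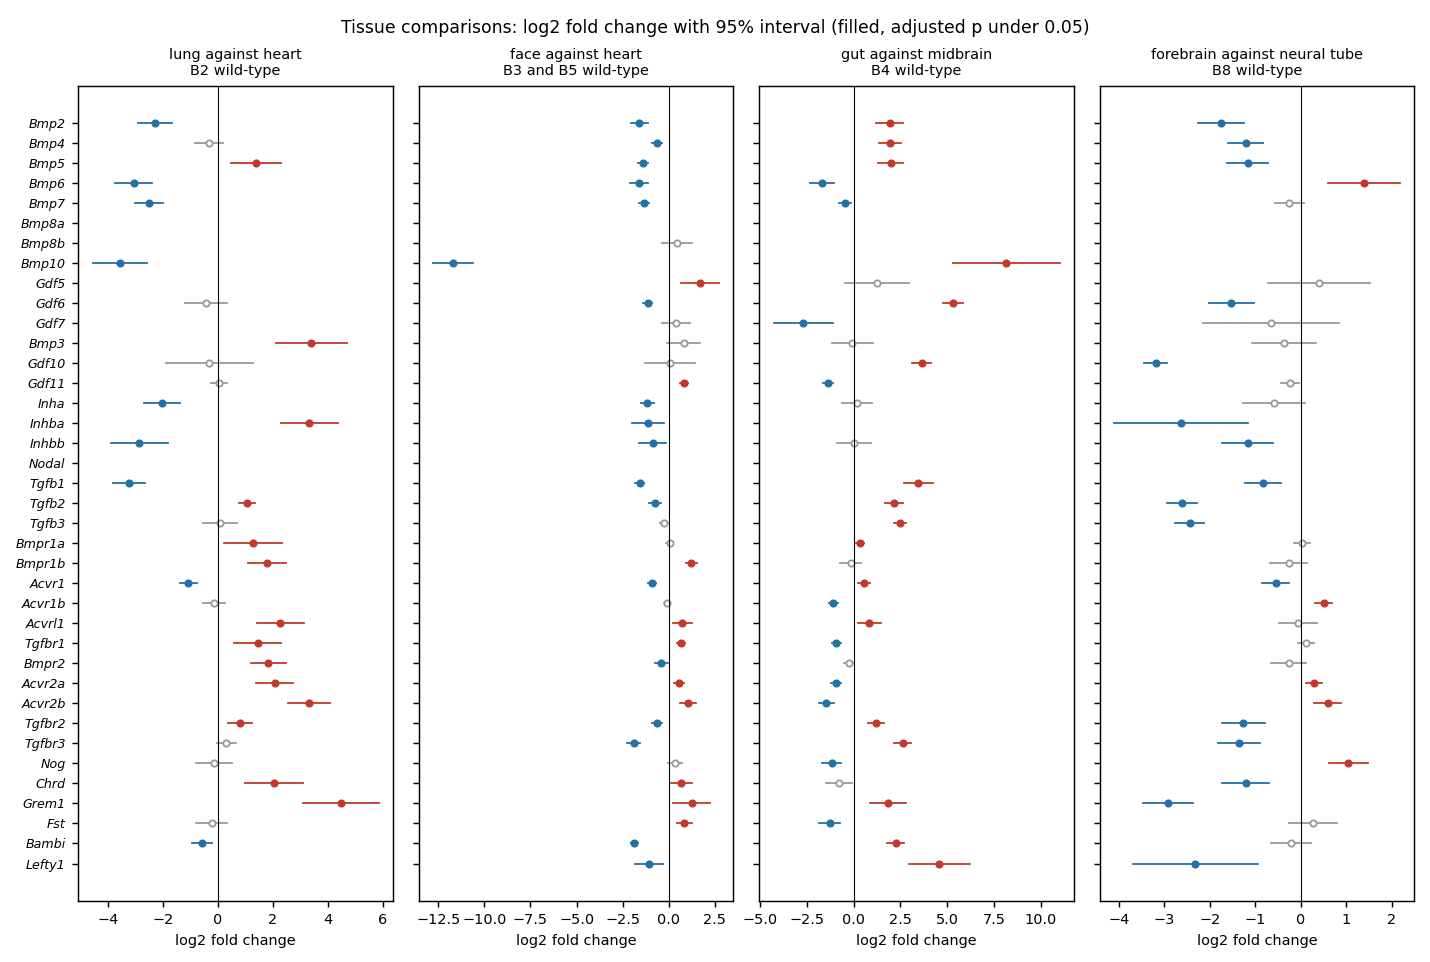
Log2 fold change of each member with its 95% interval in the 4 wild-type tissue comparisons (1 panel each; filled points passed an adjusted p of 0.05). Of the members drawn, 14 are filled above 0 and 9 below it for lung against heart, and 5 above and 16 below for forebrain against neural tube.

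The boundary deletions were then compared with wild-type tissue of the same line, to ask whether any of these genes responded. Over 12 comparisons within a line, 398 tests of members were made, and none passed an adjusted p of 0.05 in edgeR, the smallest being 0.206. An unadjusted p under 0.05 was seen in 43 of the 398, or 10.8%, against 6.41% of 180439 tests over all genes in the same comparisons. In 280 tests the 95% interval of the difference lay within 1 log2 unit of 0, so that a change beyond that size lay outside the interval in those tests, which does not hold for the other tests. The share of all genes that passed was 0% in B2 lung, B2 heart, B3 heart, B4 gut, B5 face, B5 heart and B8 forebrain, and 0.0131% in B3 face, 0.00677% in B4 midbrain, 0.0723% in B6 face, 0.0329% in B7 face and 0.0132% in B8 neural tube. Values below are given for members picked by their small p. Genotypes that do not overlap in them follow in part from that choice and are no added evidence. The share of all genes with separate genotypes was not computed. Counts of members that passed when a library was left out are also given without the share of all genes.

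In the B2 line, 2 of 31 members tested in lung had an unadjusted p under 0.05 (background 3.19%), as did 4 of 31 in heart (background 4.85%). Bmp2 in lung was at 0.624, 0.688, 0.838, 0.88, 0.883 and 0.919 in homozygous libraries. In wild-type lungs Bmp2 was at 0.944 to 1.18 apart from E5420-07 at 2.46, and the value of E5420-09 rested on 4 counts. The groups did not overlap (log2 difference -0.65 ± 0.23, adjusted p = 0.89). Over 18 alternative fits, which include leaving out libraries, the log2 difference of Bmp2 ranged from -0.73 to -0.36. Homozygous lungs had a median hepatocyte marker sum of 140.0, against 19.3 in wild-type lungs, and its part in the result was not tested. Bmp6 in lung differed by -0.63 (adjusted p = 0.89), with overlapping groups. The first part of the lung codes, such as E5406, is shared by libraries of both genotypes. The labels do not say what this part stands for. With it in the model, none passed in edgeR, and Bmp2 and Bmp6 differed by -0.52 and -0.58. In heart, Tgfb3 was at 11.7, 13, 13.4 and 17 in homozygous and 10.1, 10.3, 11.3 and 11.6 in wild-type libraries (0.37 ± 0.11, adjusted p = 0.867). Bmp10 was at 3.97, 4.16, 4.21 and 4.73 in homozygous and 1.71, 2.7, 3.29 and 3.82 in wild-type hearts (0.59 ± 0.26, adjusted p = 0.867). Neither gene overlapped between genotypes, and neither passed over all genes. Gdf10 was at 0.144, 0.384, 5.69 and 20.5 in homozygous hearts, the highest being A58, and at 0.208, 0.632, 1.05 and 2.58 in wild-type hearts (2.62 ± 1.14, adjusted p = 0.867), and without A58 the log2 difference was 0.92. The genotype difference in lung was also compared with that in heart, and none of 35 members passed in edgeR (background 0%), with 2 at an unadjusted p under 0.05 (background 3.02%).

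In the B3 line, 5 of 34 members in face (background 9.49%) and 1 of 33 in heart (background 9.47%) had an unadjusted p under 0.05. Bmpr1b was at 3.71 and 3.9 in homozygous and 5.11 and 5.27 in wild-type faces (-0.39 ± 0.10, adjusted p = 0.503). Gdf10 was at 3.94 and 5.16 against 2.78 and 3.05 (0.64 ± 0.18), and Fst at 4.89 and 6.49 against 3.78 and 4.09 (0.53 ± 0.17), both with an adjusted p of 0.503. Tgfbr3 was at 16.2 and 18.5 in homozygous and 10.9 and 13.1 in wild-type hearts (0.55 ± 0.14, adjusted p = 0.524). In each of these genes, picked by their small p, the genotypes were separate, and none passed over all genes. In the B5 line, 1 of 34 members in face (background 3.21%) and none of 35 in heart (background 0.748%) had an unadjusted p under 0.05. Gdf7 was at 2.13 and 2.31 in homozygous and 0.914 and 1.66 in wild-type faces (0.85 ± 0.34, adjusted p = 0.999). Without the wild-type face A20, 5 members passed in B5 face, namely Bmpr2, Acvr2a, Acvr2b, Tgfbr1 and Tgfb2, and without the homozygous heart A22, Bambi passed in B5 heart. These fits leave 1 library in a group, which is assumed to vary like the others. The homozygous B5 hearts A21 and A22 had a Spearman correlation of 0.9354, against 0.9748 or more in the other homozygous pairs. They had 5.36% and 17.55% of their counts in their 10 most abundant genes. The part of this difference in the B5 heart results was not tested.

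In the B4 line, 6 of 36 members in gut (background 6.9%) and 4 of 31 in midbrain (background 7.25%) had an unadjusted p under 0.05. Inhbb showed the smallest p of all within-line tests. It was at 0.0891 and 0.136 in homozygous and at 0.678 and 1.36 in wild-type gut, a log2 difference of -3.14 ± 0.50 (adjusted p = 0.206), and DESeq2 gave an adjusted p of 0.000414. Fst was at 7.61 and 10.1 in homozygous and at 3.45 and 4.93 in wild-type gut (1.09 ± 0.23, adjusted p = 0.295), and DESeq2 gave an adjusted p of 0.0157. Bmp10 was at 2.73 and 4.1 against 1.01 and 1.78 (1.31 ± 0.40, adjusted p = 0.514). The genotypes did not overlap for these genes. Without the wild-type gut A42, Fst passed, and without the wild-type gut A44, Inhbb and Gdf10 passed. In midbrain, Tgfb3 was at 1.67 and 1.98 in homozygous and 3.33 and 3.63 in wild-type libraries (-0.92 ± 0.18, adjusted p = 0.668). Without the homozygous midbrain A37, Bmp7 and Tgfb3 passed. Chrd and Gdf7 in midbrain differed by -0.63 and -1.18, both with an adjusted p of 0.668. The remaining homozygous midbrain, A39, had forebrain markers summing to 213.0, against 60.3 to 74.2 in the other 3 midbrains, whose part in these values was not tested.

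In the B6 face, 7 of 34 members had an unadjusted p under 0.05 (background 8.65%). Bmp6 was at 0.805 and 1.06 in homozygous and at 1.76 and 2.32 in wild-type faces (-1.16 ± 0.26, adjusted p = 0.282), with no overlap. Bambi was at 6.47 and 6.49 against 4.45 and 5.08 (0.43 ± 0.13, adjusted p = 0.435), and Chrd at 1.12 and 1.37 against 1.85 and 1.97 (-0.64 ± 0.20, adjusted p = 0.455). Without the homozygous face A5, Bmpr2 passed, and without the wild-type face A27, Bmp6 passed. In the B7 face, 5 of 34 members had an unadjusted p under 0.05 (background 7.55%). Bmp2 was at 1.16 and 1.18 in homozygous and 1.8 or more in both wild-type faces (-0.69 ± 0.20, adjusted p = 0.495). Fst was at 3.22 and 3.73 against 5.06 and 5.09 (-0.56 ± 0.16, adjusted p = 0.495), and Bmp4 at 13.8 and 14.8 against 17.3 and 18.9 (-0.39 ± 0.12, adjusted p = 0.513). Without the homozygous face A3, Tgfb2 and Gdf10 passed. Among the other pathway genes the only call over the 12 comparisons was Tbx20 in B7 face, named after its value was seen, with a log2 difference of 3.41 ± 0.29 and an adjusted p of 0.0252.

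In the B8 forebrain, 2 of 32 members had an unadjusted p under 0.05 (background 5.57%), and in the B8 neural tube 6 of 33 did (background 10%). In the neural tube Tgfb2 was at 12.1 and 17.4 in homozygous and at 20.7 and 27.3 in wild-type libraries (-0.75 ± 0.21, adjusted p = 0.419). Nog was at 1.56 and 2.2 against 3.5 and 4.29 (-1.07 ± 0.30), and Gdf5 at 0.0776 and 0.284 against 0.445 and 1.39 (-2.38 ± 0.72), both with an adjusted p of 0.419. The genotypes were separate in each. Without the homozygous neural tube A35, 9 members passed, including Tgfb2, Nog and Gdf5. In the forebrain Acvr2a was at 8.79 and 9.85 in libraries labelled homozygous and at 12 and 12.2 in those labelled wild-type (-0.37 ± 0.13, adjusted p = 0.826), and Inhbb differed by -1.32 (adjusted p = 0.826). Without the forebrain A29, labelled homozygous, Bmpr1a, Bmpr2 and Acvr2a passed.

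**Figure D4:**
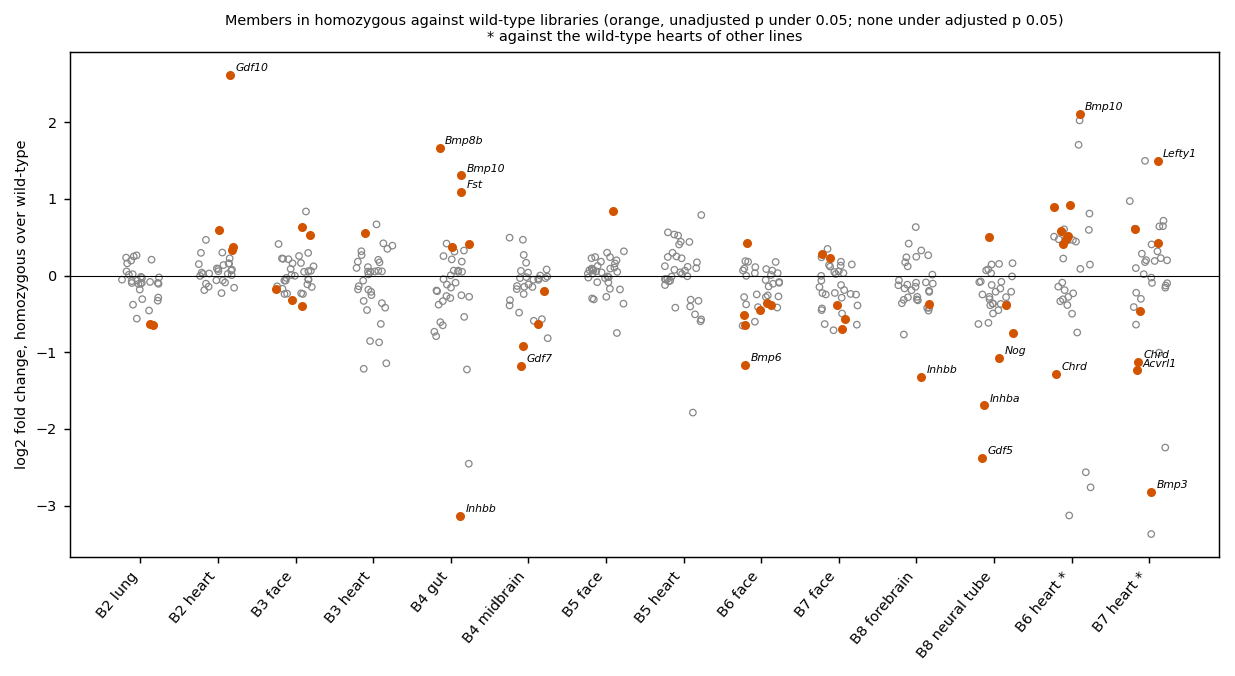
Log2 difference between homozygous and wild-type libraries for the members tested in each comparison (1 column per comparison; 1 point per member; orange, unadjusted p under 0.05). No point passed an adjusted p of 0.05, and the lowest point in B4 gut is Inhbb at -3.14.

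Homozygous hearts of lines B6 and B7 had no wild-type hearts of their own and were set against the 8 wild-type hearts from the other lines (B2, B3, B5), and the effects of line and deletion cannot be told apart here. Both comparisons share these wild-type hearts. None of 35 members passed in either with edgeR (background 0% in both). In B6, 8 had an unadjusted p under 0.05 (background 16.8%), and in B7, 7 did (background 9.57%). Tgfbr3 was at 16.3 and 16.7 in B6 hearts, above the wild-type hearts at 5.4 to 13.1 (0.92 ± 0.27, adjusted p = 0.194). Acvr1 was at 21 and 23.2, above the wild-type hearts at 14.1 to 18.2 (0.41 ± 0.12, adjusted p = 0.195, and 0.00721 with DESeq2). Bmp2 was at 9.57 and 10.0 in B6 and 9.09 and 10.9 in B7, above all wild-type hearts at 4.99 to 7.93, with log2 differences of 0.58 and 0.60 (adjusted p = 0.228 and 0.506). Lefty1 and Acvrl1 differed in B7 by 1.5 and -1.23 (adjusted p = 0.506 for both).

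Levels in the wild-type hearts also varied between lines for some members, which no fit compared. Bmp10 was at 1.71 to 3.82 in B2, 9.67 and 10.5 in B5 and 20.3 and 31.3 in B3, and the homozygous hearts were at 41.4 and 50.4 in B6 and 27 and 33.6 in B7. Inhba was at 0.208 to 0.409 in B2, 2.21 and 2.45 in B5 and 4.44 and 5.79 in B3, in the same order as Bmp10. For both genes the 3 lines did not overlap among wild-type hearts, with only 2 hearts each for B3 and B5. The share of all genes with lines apart in this way was not computed, and line and library cannot be told apart here. Tgfbr1 was at 9.54 to 10.9 in B2 and 20.1 to 27 in B3 and B5, and Bmpr1a at 12.1 to 16.8 against 25.8 to 29.8. Tgfb1 and Bambi ran the other way, at 36.9 to 48.0 and 31.3 to 33.8 in B2 against 22.6 to 28.6 and 16.4 to 19.7 in B3 and B5. The B2 wild-type hearts also had cardiomyocyte markers at 29300 to 34000, against 10400 to 15600 in the B3 and B5 wild-type hearts, and the part of this difference was not tested. Against B2 hearts alone, 21 members passed in B6 and 18 in B7, against B5 hearts alone 12 and 7, and against B3 hearts alone none. There were 2 wild-type hearts from each of B3 and B5 and 4 from B2. The share of all genes that passed in these fits is not given, so the counts are no result about the members as a set.

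**Figure D5:**
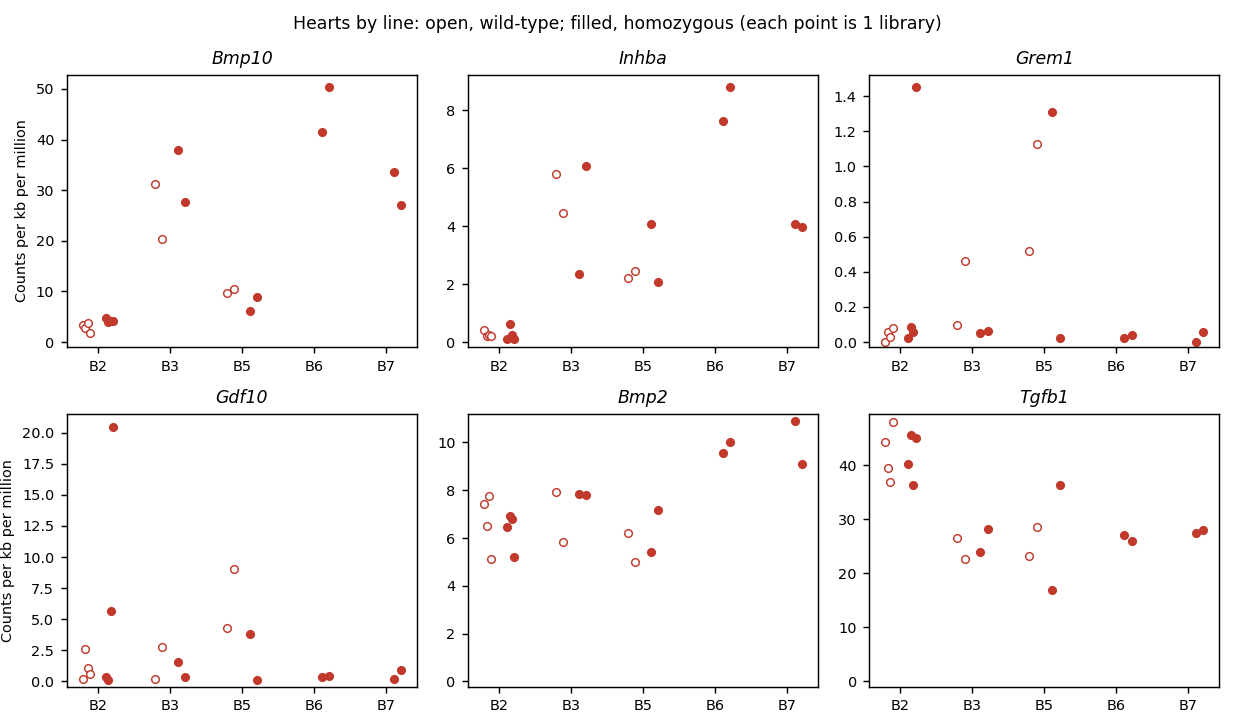
Levels in each heart library by line (1 panel per gene, counts per kilobase per 1000000 scaled counts; open, wild-type; filled, homozygous). Bmp10 is at 1.71 to 3.82 in the B2 wild-type hearts and at 20.3 and 31.3 in those of B3, while Tgfb1 is highest in B2.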

How the data were processed

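RNA-seq tables for 64 libraries were analysed. Per the labels and the study's methods, the authors aligned reads to mm10 with STAR and estimated expression per gene with RSEM, and they deposited expected counts and TPM for each library. The expected counts were rounded to whole numbers. Genes with low counts were removed (filterByExpr), libraries were scaled by TMM, and differences were tested with the quasi-likelihood F-test of edgeR 4.0.16 in R 4.3.3, with Benjamini-Hochberg adjustment over all genes tested in that comparison and a threshold of 0.05. DESeq2 1.42.0, relative log expression factors, no filter, leaving out libraries and, added after seeing the data, scaling by total counts were alternatives. Levels are counts per kilobase of effective length per 1000000 scaled counts. Total counts were 8391553 to 31793440 per library, so genes with few counts are imprecise. No libraries were identical within a group. Full values were given for up to 6 called members per direction in each tissue comparison and for the 3 with the smallest p in each genotype comparison. The members and lists were chosen with earlier results of these data known. Hi-C samples were not used here.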

Additional observations from a re-analysis of the deposited data

Results flagged for a closer look

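In groups of 4 to 6 libraries, 124 pairs of a member and a group were examined for a highest or lowest library that stood apart from the rest by more than Dixon's critical value, and 20 pairs did. Chance alone gives about 1 in 20.

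The wild-type lung E5420-07 accounted for 16 of them. It was high for Bmp2 (2.46, others 0.944 to 1.18), Bmp4 (49.6, others 21.3 to 31.5), Bmp7 (19.9, others 8.93 to 10.6), Tgfb3 (20.5, others 6.75 to 11.7), Inha (5.79, others 2.19 to 2.96) and Inhba (5.22, others 1.47 to 2.55). The receptors Acvr1b (14.6, others 7.98 to 9.7), Acvrl1 (23.6, others 6.67 to 9.94) and Acvr2b (38.6, others 12.9 to 17.9) and the antagonist Chrd (6.36, others 1.2 to 2.44) were also high in it. It was low for Bmp5 (1.53, others 8.27 to 9.73), Bmpr1a (5.31, others 40.9 to 51.4), Bmpr1b (1.22, others 2.17 to 2.68), Tgfbr1 (6.0, others 33 to 36.2), Bmpr2 (5.02, others 12.5 to 16) and Acvr2a (3.53, others 10.1 to 12.4).

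The wild-type lung E5420-09 was high for Acvr1 at 11.9 (others 5.57 to 7.4), a value that rests on 25 counts. The homozygous lung E5420-05 was high for Inha at 3.71 (others 2.05 to 2.61). The homozygous B2 heart A58 was low for Tgfbr2 at 7.59 (others 8.46 to 8.62) and for Nog at 3.76 (others 4.69 to 4.72).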

How the results depend on the processing

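Of 223 alternatives to the main values, 195 kept the direction and the side of the threshold or stayed within 1.5 times the main count, 21 gave more calls, 1 gave fewer, 6 mean levels moved on the TPM scale, and none reversed. For single members 853 of 908 alternatives kept their side, 29 became and 26 ceased to be significant. Without the filter on low counts, 1 member passed in B3 face, 3 in B4 gut, 1 in B6 face, 1 in B7 face and 3 in B8 neural tube, and with DESeq2, 2 passed in B4 gut and 1 in the B6 hearts, where edgeR gave 0 each time. Against wild-type hearts of B2 alone 21 members passed in B6 and 18 in B7, and against B5 alone 12 and 7. Forebrain against neural tube gave 7 calls in samples labelled homozygous, against 21. The cause was not tested. For the alternatives here and above, the share of all genes that passed is not given. Their counts are therefore no result about the members as a set.

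Leaving out each library in turn gave 0 to 2 calls in B4 gut, B4 midbrain and B7 face, 0 to 5 in B5 face, 0 to 1 in B5 heart and B6 face, 0 to 3 in B8 forebrain, 0 to 9 in B8 neural tube and 0 in the other genotype comparisons. The ranges were 22 to 27 for lung against heart and for face against heart, 23 to 28 for gut against midbrain and 16 to 21 for forebrain against neural tube. With the first part of the lung codes as a block (replicate block) in B2 lung, 0 members passed, as without it. In the other comparisons no paired analysis was possible because the replicate codes are unique to each library.

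On the deposited TPM scale, over both genotypes, Tgfbr1 had a mean of 55.9 in face, 69.9 in forebrain, 95.1 in midbrain and 70.3 in neural tube, Bmpr1a 30.6 in lung and Tgfb1 91.3 in gut. On the scale used here these means were 35.8, 42.2, 52.0, 42.1, 45.1 and 55.4.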
